A study of Gallus gallus with 12 samples.

Results

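The melatonin synthesis and clock genes described here are 10 genes picked by symbol, AANAT, ASMT, TPH1, CRY1, CRY2, PER2, PER3, CLOCK, ARNTL and NPAS2, out of 23726 genes in the count matrices, and all 10 have a row there. They were followed in the retina of the chick, Gallus gallus, at embryonic day 12 (E12) and embryonic day 18 (E18). Each stage has 4 libraries of dissociated whole retina, made with the 10x Genomics 3′ version 2 chemistry, in which every captured RNA molecule carries a unique molecular identifier (UMI). The labels used here name no treatment, genotype or strain for either group. They also do not say whether the libraries of a stage come from separate embryos, nor the sex of the embryos, the hour of collection or the light cycle, so the p-values below measure the spread between libraries, which may be technical.

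Melatonin is made from tryptophan. TPH1 hydroxylates tryptophan, DDC decarboxylates the product to serotonin, AANAT acetylates serotonin, and ASMT methylates N-acetylserotonin to melatonin. In birds the retina makes melatonin as the pineal gland does, chiefly in photoreceptors, and AANAT is known as the rhythmic step, controlled by the circadian clock and suppressed by light. In that clock CLOCK or NPAS2 pairs with the ARNTL product (BMAL1) to activate PER and CRY genes, whose proteins then repress the pair.

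The deposited matrices held 56624 barcodes at E12 and 30022 at E18, with 25226502 to 27655687 UMIs per library at E12 and 16436527 to 16967777 at E18. Classes were named from marker genes after clustering without the 10 genes, other pathway genes or W-linked genes. After removal of barcodes called as doublets, the photoreceptor-like class held 502 cells at E12 and 4396 at E18, the bipolar-like class 2284 and 10331, and the amacrine-like class 24038 and 5093. Levels are in CPM, the standard depth-scaled count, here the UMIs of a gene relative to all UMIs summed over the cells of a class in a library, given as mean ± SD over 4 libraries. The W-linked gene HINTW had 61515 UMIs at E12 and 0 at E18, so sex and stage cannot be told apart, and the stage results were also computed on E12 cells with no W-linked UMI. Those were 64.7% of the E12 barcodes, and at this depth they can include female cells. At E18, where HINTW had 0 UMIs, 90.7% of barcodes had no W-linked UMI. The subset therefore does not separate sex from stage. Pairs of libraries shared 278 to 298 barcode sequences at E12 and 62 to 85 at E18, at most 2.1% of the barcodes of the smaller library.

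The 3 melatonin enzymes were at or near 0 in E12 photoreceptor-like cells and were all higher at E18. AANAT had 0 UMIs in the 502 E12 cells, against 185, 187, 163 and 185 CPM in the 4 E18 libraries. With 3 counts over the E12 group as the floor, 3.67 CPM, that is at least 49.2-fold higher (edgeR's quasi-likelihood test, Benjamini-Hochberg adjusted p = 1.4e-21). All 4 E18 libraries stood far above the floor and close to each other.

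TPH1 also had 0 UMIs at E12, and 97.5, 92.9, 96.7 and 91.3 CPM at E18. The rise was at least 25.8-fold (adjusted p = 4.04e-15), with little spread among the 4 E18 libraries. ASMT had 4.98, 4.43, 0 and 9.27 CPM at E12, from 4 UMIs in all, and 93.7, 80.9, 81.7 and 87.2 CPM at E18. The groups did not overlap, and the log2 fold change was 3.66 ± 0.43 (SE, adjusted p = 1.6e-11). Those 4 UMIs were most of the 5 ASMT UMIs of the whole E12 retina.

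A call in these comparisons needs an adjusted p under 0.05 and a change of at least 2-fold. Of the 10 genes, 7 passed the filter on low counts in photoreceptor-like cells and 5 were called, all higher at E18, where 27.2% of the 7558 genes tested were called in either direction, 16.5% as higher and 10.7% as lower. Beside the enzymes these were CLOCK, an activator, and CRY2, a repressor. AANAT, TPH1, ASMT and CLOCK had 0 to 4 UMIs at E12 and passed the filter only through the E18 group. They could therefore only be called as higher at E18, so the shared direction of these calls carries little weight. On E12 cells with no W-linked UMI the same 5 genes were called, with CRY2 at 1.26 on the log2 scale. NPAS2, PER3 and CRY1 had too few UMIs for the test, with 35, 30 and 12 in E18 photoreceptor-like cells.

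CLOCK had 3 UMIs in the E12 cells, 4.98, 0, 5.68 and 4.63 CPM, and 55.3, 58.4, 50.2 and 46.7 CPM at E18. The ratio of the pooled levels was 14.4, with a 95% counting interval of 4.86 to 69.99, and the adjusted p was 8.9e-08. CRY2 went from 24.9, 57.6, 28.4 and 55.6 CPM to 118, 127, 103 and 115 CPM, without overlap. Its log2 fold change of 1.00 ± 0.23 (adjusted p = 0.00019) lay on the 2-fold line, and its call was lost without E12 replicate 1 (0.84), E12 replicate 3 (0.91) or E18 replicate 2 (0.97).

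ARNTL had 35.3 ± 7.3 CPM at E12 and 72.0 ± 6.1 at E18, again with no overlap, but did not pass the test (log2 fold change 0.59 ± 0.26, adjusted p = 0.057). TMM scaling, which aligns most genes between libraries, moved the median of all genes in this comparison by 0.45 on the log2 scale, and without it ARNTL was called (1.03, adjusted p = 0.00028). PER2, a repressor whose transcription also responds to light in birds, had 16.2 ± 7.8 CPM at E12 and 27.3 ± 6.6 at E18, with overlapping libraries (adjusted p = 0.55).

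**Figure D1:**
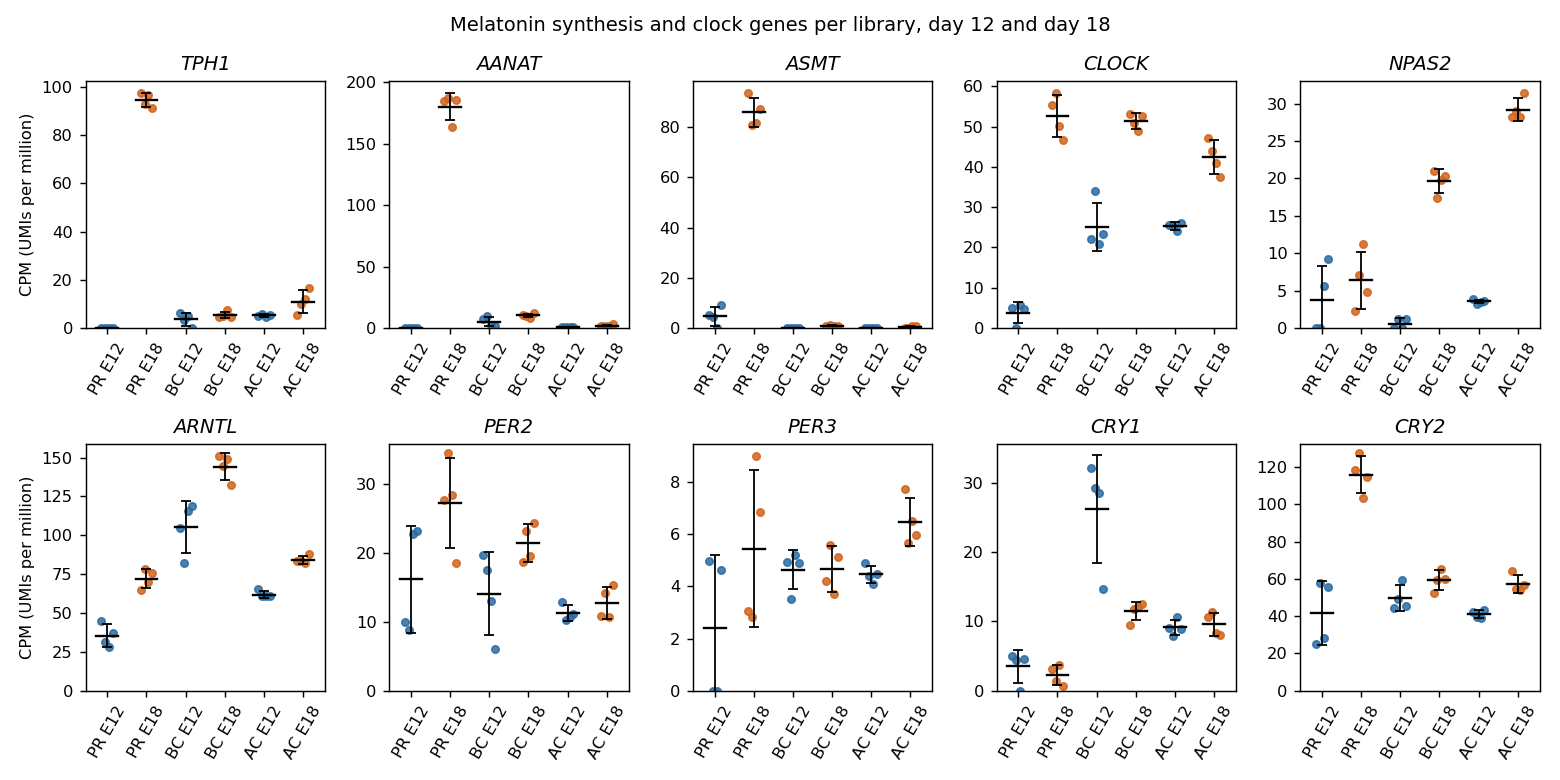
Levels of the 10 genes in photoreceptor-like (PR), bipolar-like (BC) and amacrine-like (AC) cells at E12 (blue) and E18 (orange), in CPM on a linear axis from 0 that differs between panels; each point is a library, the line the mean and the bar the SD (n = 4). AANAT, TPH1 and ASMT are low in both stages of BC and AC and in E12 PR, and high in E18 PR, where the means are 180.3, 94.6 and 85.9 CPM, and NPAS2 is high at E18 in bipolar-like and amacrine-like cells instead.

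The E12 photoreceptor-like class is a narrow set of cells. Its leading genes were ARHGAP18 (4932 CPM), INHBB (2071 CPM) and PRLH (1917 CPM), beside the photoreceptor genes RBP4, PRDM1 and GNAT2, while ARR3 and PDE6C were at 0 and OPN1LW was at 7.3 CPM. At E18 the photoreceptor-like cells that share these genes were the 336 cells led by INHBB and PRLH. Against that E18 group alone, a comparison chosen after the data were seen, none of the 10 genes was called: AANAT, ASMT, TPH1 and CLOCK were below the filter, and CRY2 had a log2 fold change of 0.98 (adjusted p = 0.0077).

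Another 704 E12 cells, in 2 clusters that stayed unnamed, carried RBP4 (3638 CPM), OTX2 (1270.2 CPM) and PRDM1 (231 CPM) together with the amacrine gene TFAP2A (1961 CPM). The smaller of these clusters was also led by MEGF10 and SLC10A4, genes of starburst amacrine cells. They had 3 UMIs of AANAT, 1 of ASMT and 21 of TPH1 (17.6 ± 8.5 CPM), and CRY2 stood at 109 ± 31 CPM. Counted as photoreceptor-like, also a choice made after the data were seen, they left AANAT (log2 fold change 6.68), ASMT (4.91), TPH1 (3.04) and CLOCK (1.46) called, while CRY2 was not called (0.38). A further 163 E12 cells led by RBP4 and PRDM1 inside the amacrine-like class had 1 UMI of AANAT and none of ASMT or TPH1, and with them as photoreceptor-like CRY2 was not called either (0.61).

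In bipolar-like cells, which carry photoreceptor signals inward, NPAS2 was higher and CRY1 lower at E18. These were the 2 genes called of 9 tested, a share close to that of all genes, where 22.0% of 10009 genes tested were called, 13.7% as higher and 8.3% as lower. NPAS2 had 2 UMIs at E12 (0.60 ± 0.69 CPM) and 21.0, 17.3, 19.8 and 20.3 CPM at E18. The ratio of the pooled levels was 31.8, with a 95% counting interval of 8.74 to 264 (adjusted p = 1.4e-09). NPAS2 passed the filter on low counts only through the E18 group, so it could only be called as higher.

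CRY1, a repressor, was the member called lower. It had 32.1, 29.3, 28.5 and 14.7 CPM at E12 and 9.53, 11.7, 12.1 and 12.4 CPM at E18, with a log2 fold change of -1.29 ± 0.21 (adjusted p = 7.3e-06). E12 replicate 4 came closest to the E18 range but stayed above it. CLOCK passed the adjusted p but not the fold, with 25.1 ± 6.1 CPM at E12 and 51.4 ± 2.0 at E18 (0.92 ± 0.15, adjusted p = 5.2e-06); it was called without E12 replicate 2 (1.12), without TMM scaling (1.03) and on E12 cells with no W-linked UMI (1.17).

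AANAT in bipolar-like cells had 7.40, 9.38, 2.59 and 1.23 CPM at E12 and 10.9, 9.87, 8.44 and 11.9 CPM at E18. The groups overlapped and the change was not called (0.86 ± 0.37, adjusted p = 0.045), although it passed both thresholds without E12 replicate 1 (1.07) or E12 replicate 2 (1.34). AANAT needed E18 libraries to pass the filter on low counts, since E12 replicates 3 and 4 were low, which favours a call as higher. ARNTL was at 105 ± 17 and 144 ± 8.4 CPM, a small difference (0.35, adjusted p = 0.0016). CRY2, PER2, PER3 and TPH1 overlapped between the stages and did not pass, and ASMT had 0 UMIs at E12 and 13 at E18.

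In amacrine-like cells, which shape signals between bipolar and ganglion cells, NPAS2 was the single gene called of 8 tested, where 19.7% of 11941 genes tested were called, 12.2% as higher and 7.53% as lower. Its level was 3.84, 3.27, 3.49 and 3.56 CPM at E12 and 28.2, 29.0, 28.2 and 31.4 CPM at E18. The groups stood far apart with little spread in either, and the log2 fold change was 2.84 ± 0.11 (adjusted p = 1.0e-14). CLOCK (25.3 ± 0.90 to 42.4 ± 4.1 CPM), CRY2 (41.1 ± 2.2 to 57.3 ± 4.7 CPM) and ARNTL (61.8 ± 2.3 to 84.1 ± 2.5 CPM) passed the adjusted p with changes under 2-fold, at 0.54, 0.28 and 0.24 on the log2 scale. TPH1 was at 5.21 ± 0.58 and 10.997 ± 4.7 CPM (0.87 ± 0.22, adjusted p = 0.0018), and it was called without E18 replicate 1 (1.09) or without TMM scaling (1.07). CRY1, PER2 and PER3 did not pass, and the fitted changes of CRY1 and PER2 had opposite signs with and without TMM scaling.

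Whether the change with stage differed between classes was tested as an interaction of class and stage. Against bipolar-like cells, 4 of 9 genes tested differed, where 19.1% of 9543 genes tested did, 11.6% with the higher change in photoreceptor-like cells and 7.49% with the lower. AANAT (adjusted p = 1.0e-07) and TPH1 (adjusted p = 6.2e-06) rose in photoreceptor-like cells from 0 UMIs, so no size is given for their differences. CLOCK rose more in photoreceptor-like cells by 2.48 ± 0.61 on the log2 scale (adjusted p = 0.0011). NPAS2 went the other way, by -4.35 ± 1.46 (adjusted p = 0.019), from 3 UMIs in E12 photoreceptor-like and 2 in E12 bipolar-like cells, and this call was lost without E12 replicate 3 or E12 replicate 4 and on E12 cells with no W-linked UMI (adjusted p = 0.0503). TPH1 passed the filter on low counts only through E18 photoreceptor-like cells and NPAS2 only through E18 bipolar-like cells. Each could therefore only be called in the direction given.

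Against amacrine-like cells, 3 of 10 genes differed, where 21.2% of 11508 genes tested did, 14.7% with the higher change in photoreceptor-like cells and 6.56% with the lower. These were AANAT (adjusted p = 2.7e-07), TPH1 (adjusted p = 7.1e-06) and CLOCK (2.95 ± 0.54, adjusted p = 3.2e-05). AANAT passed the filter on low counts only through E18 photoreceptor-like cells, so it could only be called as rising more there. With the 704 unnamed E12 cells counted as photoreceptor-like, the differences in CLOCK were 0.53 (adjusted p = 0.15) against bipolar-like and 0.92 (adjusted p = 0.0020) against amacrine-like cells, and neither was called. ASMT had 0 UMIs in both comparison classes at E12, so its interaction says little.

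At E18 the enzymes set photoreceptor-like cells apart from both interneuron classes. Of the 1304 AANAT UMIs of the E18 retina, 995 were in photoreceptor-like cells, as were 473 of 511 ASMT UMIs and 521 of 848 TPH1 UMIs. Against bipolar-like cells, 6 of the 10 genes were called, where 33.3% of 10531 genes tested were, 16.9% as higher and 16.4% as lower. AANAT was higher by 4.32 ± 0.10 on the log2 scale (adjusted p = 6.7e-47), ASMT by 6.72 ± 0.19 (4.3e-42 adjusted), TPH1 by 4.30 ± 0.14 (2.1e-39 adjusted) and CRY2 by 1.16 ± 0.08 (3.6e-20 adjusted). ASMT passed the filter on low counts only through photoreceptor-like cells, so it could only be called as higher.

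NPAS2 and CRY1 were lower in photoreceptor-like cells. NPAS2 stood at 6.35 ± 3.8 CPM there and 19.6 ± 1.6 CPM in bipolar-like cells (-1.42 ± 0.24, adjusted p = 5.0e-07), and CRY1 at 2.23 ± 1.4 and 11.5 ± 1.3 CPM (-2.18 ± 0.36, adjusted p = 1.8e-07), both without overlap. CRY1 passed the filter on low counts only through bipolar-like cells, so it could only be called as lower. NPAS2 also needed bipolar-like libraries to pass, since photoreceptor-like replicate 1 was low (2.30 CPM), which favours a call as lower. ARNTL was also lower, 72.0 ± 6.1 against 144 ± 8.4 CPM, with no overlap but a scaled change under 2-fold (-0.80 ± 0.08, adjusted p = 2.0e-14). The call of CRY2 was lost without TMM scaling (0.97), which moved the median of all genes by 0.19.

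Against amacrine-like cells, 7 of the 10 genes were called, where 41.3% of 11024 genes tested were, 18.9% as higher and 22.4% as lower. AANAT (6.59 ± 0.13), ASMT (7.72 ± 0.23), TPH1 (3.24 ± 0.13), CRY2 (1.16 ± 0.08) and PER2 (1.23 ± 0.17) were higher in photoreceptor-like cells and NPAS2 (-2.05 ± 0.22) and CRY1 (-1.97 ± 0.37) lower, all log2 fold changes with SE and with adjusted p of at most 1.8e-06. AANAT and ASMT passed the filter on low counts only through photoreceptor-like cells, and CRY1 only through amacrine-like cells. Each of these could only be called in the direction given. NPAS2 also needed amacrine-like libraries to pass, since photoreceptor-like replicate 1 was low (2.30 CPM), which favours a call as lower. Between the interneuron classes, 2 of 9 genes tested were called, where 28.8% of 11462 genes tested were, 16.8% as higher and 12% as lower. AANAT was lower in amacrine-like cells, 2.02 ± 0.68 against 10.3 ± 1.5 CPM (-2.31 ± 0.24, adjusted p = 1.2e-12). It passed the filter only through bipolar-like cells, so it could only be called as lower in amacrine-like cells. TPH1 was higher there, 10.997 ± 4.7 against 5.45 ± 1.3 CPM (1.03 ± 0.20, adjusted p = 7.5e-06), but the libraries overlapped and the call was lost without E18 replicate 4 (0.68).

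The remaining classes place these values. AANAT at E18 was at 17.3 ± 4.0 CPM in horizontal-like cells, from 61 UMIs, with 10.3 ± 1.5 in bipolar-like cells, 2.33 ± 1.0 in Müller glia-like cells, 2.02 ± 0.68 in amacrine-like cells and 1.54 ± 1.1 in retinal ganglion cell-like cells. Every horizontal-like library was above every library of the others, while the last 3 of these classes overlapped. Mean ASMT was below 1 CPM in each named class but photoreceptor-like cells. NPAS2 was highest in retinal ganglion cell-like cells (42.5 ± 7.1 CPM), ARNTL in bipolar-like cells (144 ± 8.4 CPM), CLOCK in horizontal-like cells (61.7 ± 1.4 CPM), CRY1 in Müller glia-like cells (15.7 ± 2.4 CPM) and CRY2 in photoreceptor-like cells (116 ± 9.9 CPM), each without overlap with the next class. These are levels with no test. At E12, ARNTL was likewise highest in bipolar-like cells (105 ± 17 CPM), PER2 (21.1 ± 4.8 CPM), PER3 (9.30 ± 1.9 CPM) and CLOCK (40.3 ± 2.3 CPM) in cycling progenitor-like cells, and CRY1 in bipolar-like cells (26.2 ± 7.8 CPM), though PER2 and CRY1 overlapped with the next class and CLOCK with horizontal-like cells.

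**Figure D2:**
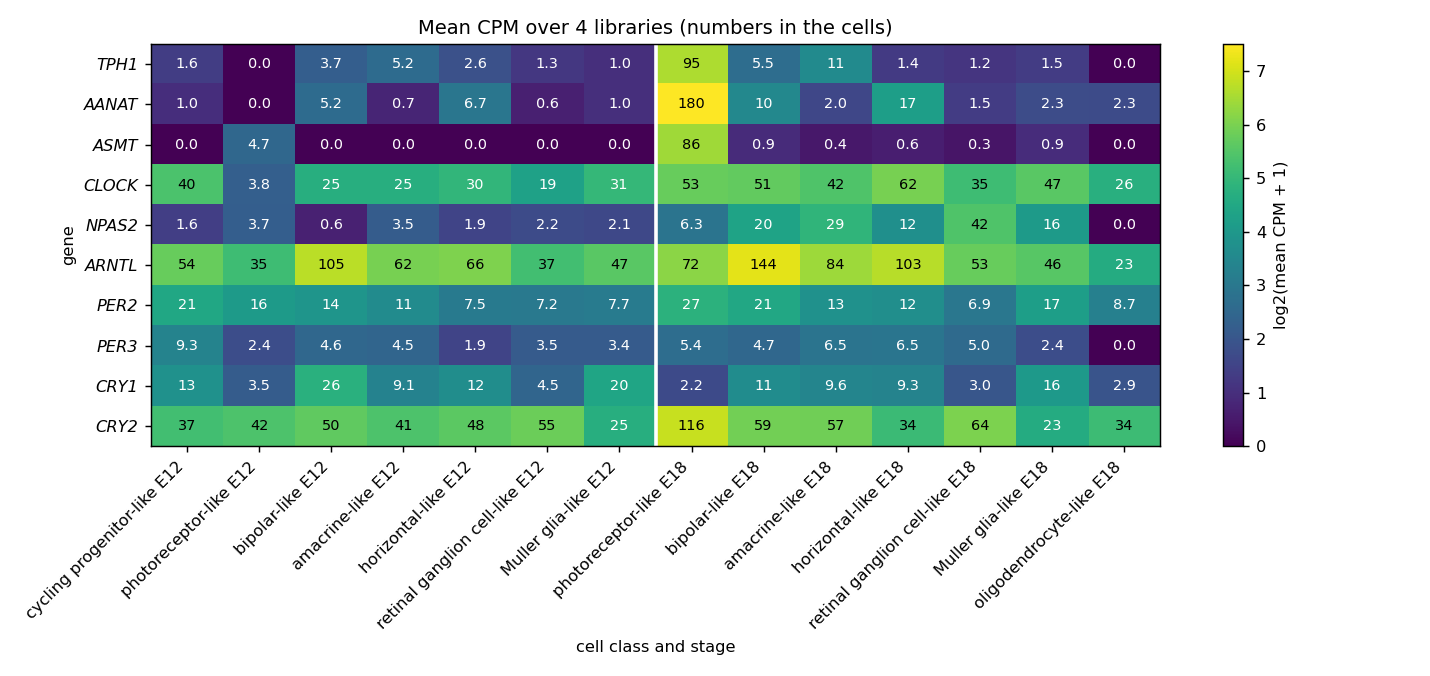
Mean level over 4 libraries of the 10 genes (rows) in each named class (columns, E12 left of the white line and E18 right), in CPM as printed in each cell; the colour scale is log2(mean CPM + 1). The enzyme rows are dark outside E18 photoreceptor-like cells, with AANAT at 17.3 CPM in E18 horizontal-like and 10.3 CPM in E18 bipolar-like cells, while CLOCK, apart from 3.82 CPM in E12 photoreceptor-like cells, ARNTL and CRY2 are bright in every column.

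Per cell, with each cell thinned to 1000 UMIs and shallower cells left out, 14.8% ± 0.48 of 3274 E18 photoreceptor-like cells had an AANAT UMI (18.4% before thinning, median depth 1284 UMIs). The share in Müller glia-like cells, set beside it for comparison, was 0.34% ± 0.18 at a median depth of 2566 UMIs. Bipolar-like cells were at 1.02% ± 0.11 and horizontal-like cells at 1.48% ± 0.59, above the Müller glia-like share, and amacrine-like cells at 0.16% ± 0.07, not above it. Free RNA was not measured, so its part in these shares was not tested. The classes also differ in depth before thinning, with medians over all their cells of 1361 UMIs in bipolar-like and 3218 in amacrine-like cells. For ASMT the share in photoreceptor-like cells was 8.62% ± 0.22 (9.89% before thinning) against 0.12% ± 0.10 in Müller glia-like cells, and for TPH1 it was 7.33% ± 0.41 (8.27% before thinning) against 0.14% ± 0.05. At E12, 0 of 502 photoreceptor-like cells had an AANAT or TPH1 UMI, with or without thinning, at a median depth of 1474 UMIs. This allows a share of up to 0.598% of cells with a UMI, which limits captured UMIs and not cells expressing the gene.

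The E18 photoreceptor-like cells fell into 8 groups by the opsin or the genes that led them. The rod-like group (616 cells) was marked by PDE6B, MAFA, SAG and CNGA1. Cone groups were led by the green opsin OPN1MSW (358 cells), the blue opsin OPN2SW (273 cells) or the red opsin OPN1LW, the last in 3 groups marked by CYP2J19 (251 cells), FLRT2 (1220 cells) or SPON2 (911 cells). A sub-cluster of 447 cells in the FLRT2 group had SPON2 at 143 CPM beside FLRT2 at 119 CPM. Its pooled ASMT was 89.3 CPM, against 135 CPM in the other FLRT2 sub-cluster and 14.8 CPM in the SPON2 group. No visual opsin led a group with HAUS1 (314 cells) and the group with INHBB (336 cells), both of which carried RBP4 and OTX2. The violet opsin OPN1SW was at or near 0 in every group, and 117 cells with the bipolar gene VSX1 among their leading genes were left out. Each group was tested against the mean of the other 7, and of the 10 genes AANAT, ASMT, TPH1, ARNTL and CRY2 passed the filter.

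TPH1 was concentrated in rods. It had 687, 577, 657 and 589 CPM in the rod-like libraries, and 449 of the 521 TPH1 UMIs of all photoreceptor-like cells were in this group. The CYP2J19-marked red cone group followed with 72.2, 161, 110 and 153 CPM. The others were low, with 17.6 ± 9.2 CPM in the HAUS1 group, 7.21 ± 2.2 in the FLRT2 group and 1 to 2 UMIs in each of the green, blue, SPON2 and INHBB groups. The rod-like and CYP2J19 groups were each above every library of the 6 other groups, and the rod-like group was above the CYP2J19 group. The Müller glia gene GLUL was also highest in the rod-like group, at 565 ± 53 CPM against means of 88.1 to 278 CPM in the others, while a second glial gene, RLBP1, was at 25.5 ± 14 CPM there, within the range of the other groups. TPH1 itself was at 1.5025 ± 0.95 CPM in Müller glia-like cells.

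AANAT was also highest in rods but was spread over the cones as well. The rod-like libraries had 579, 527, 430 and 541 CPM. The CYP2J19 group had 211 ± 64 CPM, the green group 198 ± 45, the FLRT2 group 153 ± 3.6, the SPON2 group 148 ± 24 and the blue group 85.1 ± 55, neighbours that overlapped in their libraries apart from the rod-like group. The HAUS1 group had 39.3 ± 29 CPM, with 0 UMIs in replicate 1, and the INHBB group 4 UMIs, all in replicate 4.

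ASMT was even across rods and most cones and low in a single red cone group. It had 129.9 ± 22 CPM in the rod-like group, 142 ± 26 in the green, 119 ± 20 in the blue, 142 ± 34 in the CYP2J19 and 119 ± 6.9 in the FLRT2 group, all overlapping. The SPON2 group had 14.1, 16.8, 13.7 and 14.4 CPM, below every library of those 5 groups, although its AANAT libraries overlapped those of the other red cone groups. The HAUS1 group had 15.8 ± 14 and the INHBB group 31.9 ± 13 CPM.

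In the tests of 5 members in each of the 8 groups, 14 contrasts of a member in a group were called. The share of all genes called is given for each group. These contrasts are not independent, since each group is also part of the mean against which the others were set. All 3 enzymes were higher in the rod-like group, TPH1 by 6.29 ± 0.17 on the log2 scale (adjusted p = 2.8e-93), AANAT by 2.66 ± 0.13 (adjusted p = 1.4e-50) and ASMT by 1.17 ± 0.20 (adjusted p = 8.8e-08), where 18.4% of 3546 genes tested were called (8.12% higher, 10.3% lower). They were also higher in the CYP2J19 group, where 10.7% were called (6.8% higher, 3.92% lower), TPH1 by 3.57 ± 0.37 (adjusted p = 8.7e-17), ASMT by 1.29 ± 0.26 (adjusted p = 2.4e-05) and AANAT by 1.12 ± 0.23 (adjusted p = 3.1e-05), the last below 2-fold without E18 replicate 2 (0.98). TPH1 passed the filter on low counts only through the rod-like group, so it could only be called as higher there. For ASMT the mean of the other groups includes the SPON2, HAUS1 and INHBB groups, which were low. The rod-like, CYP2J19, green, blue and FLRT2 groups overlapped in ASMT, so these contrasts do not set any of them apart from the rest of these groups.

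The SPON2 group was lower in ASMT by -2.40 ± 0.30 (adjusted p = 7.0e-13) and in TPH1, from 1 UMI (adjusted p = 6.4e-05, lost without E18 replicate 1), where 17.9% of genes were called (10% higher, 7.87% lower). The INHBB group was lower in AANAT by -4.00 ± 0.43 (adjusted p = 2.0e-16) and in ASMT by -1.02 ± 0.34 (adjusted p = 0.011), where 17.3% were called (9.42% higher, 7.9% lower), and the ASMT call was lost without E18 replicate 3 (-0.98) or E18 replicate 4 (-0.73). The HAUS1 group was lower in ASMT by -2.18 ± 0.45 (adjusted p = 1.3e-05) and in AANAT by -1.52 ± 0.36 (adjusted p = 0.000195, lost without E18 replicate 4), where 21.5% were called (8.91% higher, 12.6% lower).

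The green group was higher in ASMT by 1.20 ± 0.23 (adjusted p = 4.9e-06) and lower in TPH1, from 1 UMI (adjusted p = 0.044, lost without E18 replicate 2, 3 or 4), where 8.57% were called (5.72% higher, 2.85% lower). For TPH1 the mean of the other groups includes the rod-like and CYP2J19 groups, which were high. The blue and INHBB groups were also low in TPH1 but not called, so these calls do not set the green and SPON2 groups apart from them. No member was called in the blue group, where 10.3% were (6.99% higher, 3.36% lower), nor in the FLRT2 group, where 11.7% were (8.63% higher, 3.05% lower). ASMT in the FLRT2 group stood just under 2-fold (1.00 ± 0.16, adjusted p = 1.6e-08) and passed without E18 replicate 1 (1.01), 2 (1.00) or 4 (1.10), and in the blue group (0.95) it passed without replicate 1 (1.02) or 2 (1.01). AANAT passed without E18 replicate 4 in the green (1.44), FLRT2 (1.18) and SPON2 (1.21) groups, where its full values were 0.98, 0.62 and 0.53.

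Of the clock genes CRY2 and ARNTL could be tested between these groups, and neither was called in any of them. CRY2 was highest in the HAUS1 group, 234, 197, 162 and 169.7 CPM, and lowest in the rod-like group, 48.2, 80.3, 107.5 and 74.9 CPM, without overlap between these groups. Neither contrast reached 2-fold (0.85 ± 0.20 with adjusted p = 0.00017, and -0.61 ± 0.20 with adjusted p = 0.0063). CLOCK, which had too few UMIs for the test, was at 16.7 ± 13 CPM in the INHBB group and 42.6 to 68.3 CPM on average in the other 7. NPAS2 was at 19.5 ± 12 CPM in the rod-like group, 14 of the 35 NPAS2 UMIs of photoreceptor-like cells, and at most 6.90 CPM in the others.

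**Figure D3:**
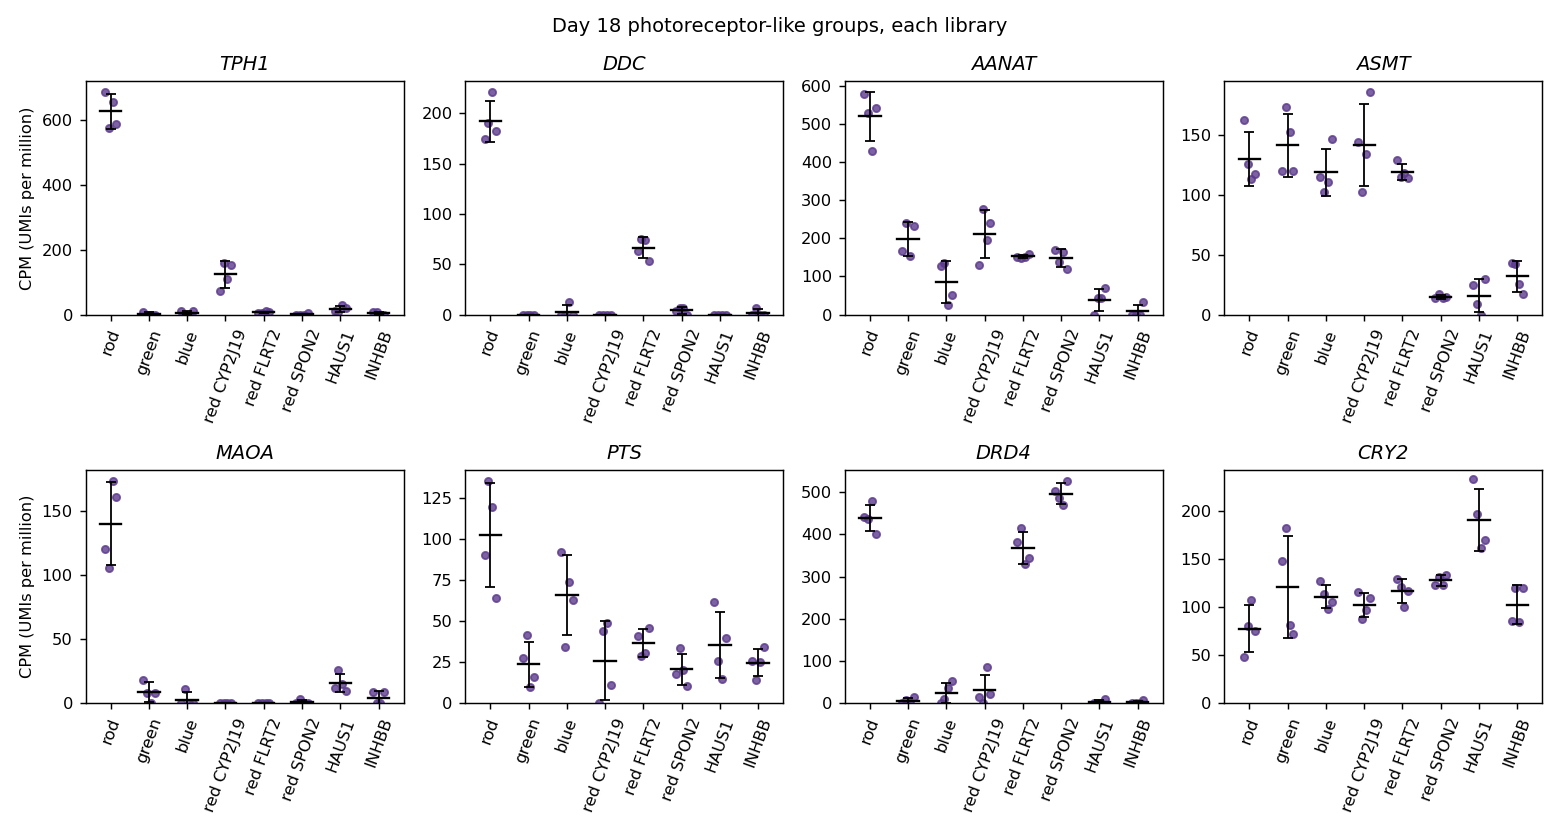
Levels of TPH1, DDC, AANAT, ASMT, MAOA, PTS, DRD4 and CRY2 in the 8 photoreceptor-like groups at E18, in CPM on a linear axis from 0 that differs between panels; points are libraries, lines means and bars SD (n = 4). The rod-like group is highest in TPH1 (628 CPM), DDC (192 CPM), AANAT (519 CPM) and MAOA (139.9 CPM), and the SPON2 group is low in ASMT (14.8 CPM) while high in DRD4 (496 CPM).

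Of the 12 other listed genes of serotonin and melatonin metabolism, 3 could be tested in these groups, DDC, MAOA and PTS. DDC was at 192 ± 20 CPM in the rod-like group and 66.5 ± 10 in the FLRT2 group (log2 differences from the mean of the others 6.13 ± 0.33 and 4.35 ± 0.39, adjusted p = 7.5e-45 and 5.3e-22). MAOA, which degrades serotonin, was at 139.9 ± 32 CPM in the rod-like group (5.55 ± 0.35, adjusted p = 5.7e-37), and PTS, which makes the cofactor of TPH1, at 102 ± 32 CPM (1.74 ± 0.25, adjusted p = 2.1e-10). DDC and MAOA passed the filter on low counts only through the rod-like group, so they could only be called as higher there. MAOA was also called higher in the HAUS1 group (15.7 ± 7.0 CPM from 6 UMIs, 2.1 ± 0.70, adjusted p = 0.0098), a call lost without E18 replicate 2. None of the 3 was called in the CYP2J19 group, the other group with TPH1. DRD4, the dopamine receptor that lowers cyclic AMP in photoreceptors, was high in the SPON2 (496 ± 24 CPM), rod-like (439 ± 31 CPM) and FLRT2 (368 ± 38 CPM) groups. The clock output factor HLF was highest in the SPON2 (909.8 ± 92 CPM) and FLRT2 (598 ± 43 CPM) groups and lowest in the HAUS1 (70.03 ± 27 CPM) and INHBB (71.6 ± 32 CPM) groups.

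Outside photoreceptors, TPH1 sat in a few clusters of cells. Of 33 amacrine-like clusters at E12, a cluster of 170 cells led by GIP and CHRM2 had 426, 390.0, 343 and 448 CPM of TPH1. It held 60.5% of the amacrine TPH1 UMIs in 0.707% of the cells, and the other amacrine-like cells were at 2.08 CPM. At E18 a cluster of 55 cells, of 59 clusters, with GIP again among its leading genes, had 150.5, 683, 669 and 874 CPM, and 80% of the UMIs, against 2.23 CPM in the rest; replicate 1 was low. These clusters are descriptions with no test.

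Some other genes of serotonin handling, named after their values were seen, were high in the same cells and others were not. The vesicle transporter SLC18A2 was at 44.1 ± 13 CPM at E12 and 240.5 ± 142 at E18, MAOB at 363 ± 68 and 309.7 ± 187, and DDC at 111.5 ± 35 and 110.6 ± 72 CPM. AANAT had 1 UMI there at E12 and 0 at E18, ASMT had 0 at both stages, and the serotonin transporter SLC6A4 had 0 at both. TPH2 had 0 UMIs at E12 and 1 at E18, GCH1 had 1 at each stage, and PTS was at 71.8 ± 34 CPM at E12 and 45.3 ± 21 at E18, beside 49.3 and 61.3 CPM in the other amacrine-like cells. In E18 bipolar-like cells, TPH1 lay mainly in a cluster led by ERBB4, IRX5 and IRX3 (381 cells, 58.9 ± 14 CPM, 45.7% of the UMIs) and in a cluster led by FEZF1 and CALB2 (362 cells, 41.3 ± 17 CPM, 29.6% of the UMIs), with a median of 0.918 CPM over 24 clusters. SLC6A4 was elsewhere, at 625 ± 140 CPM in a cluster led by CXCL14 and HTR1F.

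NPAS2 was patchy at E12 and broad at E18. At E12 its highest amacrine-like clusters, of 1339 and 536 cells led by MEGF10 and SLC10A4, had 23.4 ± 4.3 and 19.7 ± 5.8 CPM and held 36.6% and 13.4% of the UMIs. The median over the E12 clusters was 0.698 CPM, against 26.4 CPM over the E18 amacrine-like clusters and 17.1 CPM over the E18 bipolar-like clusters.

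**Figure D4:**
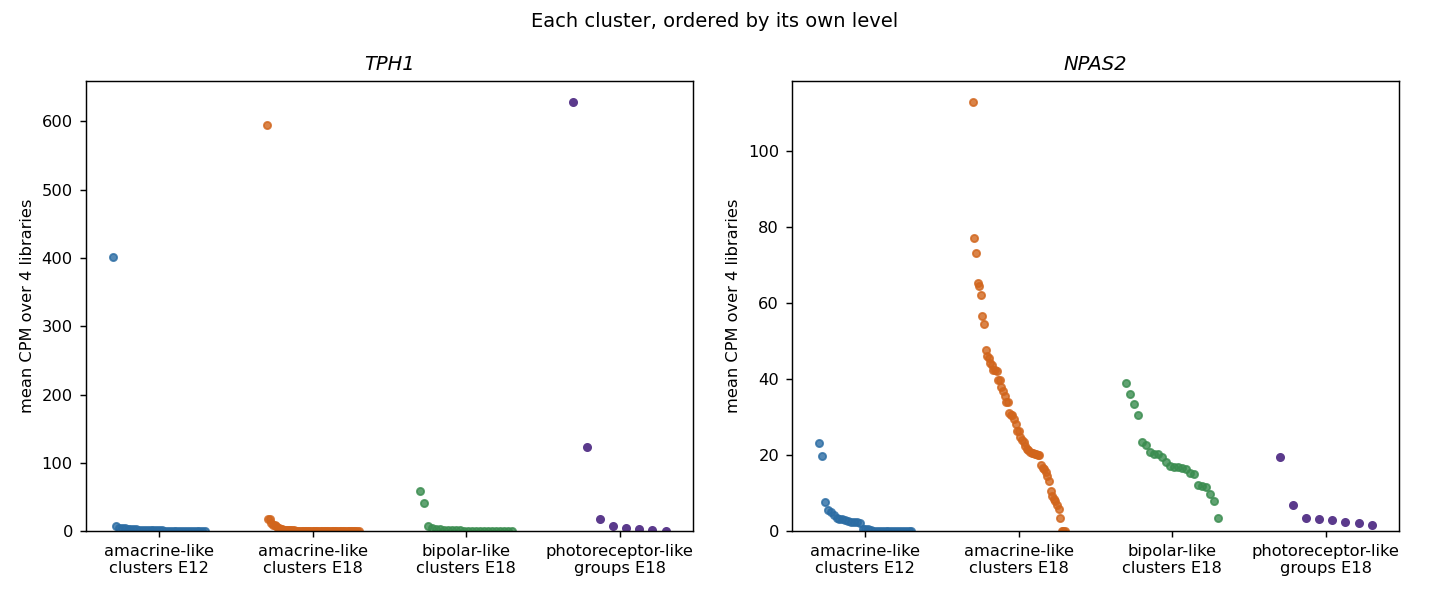
Mean level over 4 libraries of TPH1 (left) and NPAS2 (right) in CPM for each cluster, sorted within E12 amacrine-like (33), E18 amacrine-like (59) and E18 bipolar-like (24) clusters and the 8 E18 photoreceptor-like groups. TPH1 is near 0 in nearly all clusters except a single amacrine-like cluster per stage (402 and 594 CPM), the rod-like group (628 CPM), the CYP2J19 group (124 CPM) and a pair of bipolar-like clusters (58.9 and 41.3 CPM), whereas NPAS2 lies above 0 in most E18 interneuron clusters.

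The wider pathway was followed in 48 further genes present in the files, of which 22 could be tested with stage in photoreceptor-like cells, 36 in bipolar-like and 39 in amacrine-like cells. In photoreceptor-like cells 6 were higher at E18 and none lower, where 27.2% of all genes tested were called, 16.5% as higher. The share of the pathway genes called in either direction was close to that of all genes, and the share called as higher was above it. The pathway genes had a median log2 change of 0.42 over those tested, beside 0.07 over all genes tested. The highest were DRD4, from 0 UMIs to 270.4 ± 5.0 CPM (at least 73.7-fold), HLF from 21.5 ± 12 to 502 ± 26 CPM, and MAOA from 0 UMIs to 20.8 ± 2.1 CPM (at least 5.69-fold). DDC went from 3 UMIs to 45.3 ± 6.0 CPM (ratio 12.3, counting interval 4.17 to 60.2), TIMELESS from 3 UMIs to 20.9 ± 4.4 CPM (ratio 5.74, interval 1.92 to 28.2, call lost without E12 replicate 4), and the clock kinase CSNK1A1 from 119 ± 23 to 389 ± 9.6 CPM. DRD4, MAOA, DDC and TIMELESS passed the filter on low counts only through the E18 group, so they could only be called as higher. The share of pathway genes called as higher and their median change therefore carry little weight.

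In bipolar-like cells 14 were higher and 4 lower, where 13.7% of all genes tested were called as higher and 8.3% as lower. In amacrine-like cells 13 were higher and 5 lower, where 12.2% were called as higher and 7.53% as lower. HLF rose in both, from 134 ± 5.9 to 1221 ± 22 CPM and from 55.4 ± 2.9 to 417 ± 21 CPM. In bipolar-like cells CREM, a cyclic AMP-responsive factor, rose from 5.62 ± 3.5 to 39.5 ± 2.1 CPM, the transcriptional repressor CIART from 2.47 ± 2.0 to 26.4 ± 1.9 CPM, and TIMELESS from 12.2 ± 5.0 to 54.3 ± 2.9 CPM. CIART passed the filter on low counts only through the E18 group, so it could only be called as higher. CREM was below the filter's level in part of the E12 libraries and also needed E18 libraries to pass, which favours a call as higher. In amacrine-like cells the repressor BHLHE41 rose from 3.31 ± 0.24 to 20.3 ± 5.3 CPM and ADCYAP1R1, the receptor for PACAP, from 14.8 ± 0.35 to 70.9 ± 2.0 CPM. RORB fell there from 27.8 ± 2.9 to 12.7 ± 1.3 CPM and NFIL3 from 127 ± 3.8 to 63.1 ± 0.96 CPM, and both genes are Z-linked. On E12 cells with no W-linked UMI the log2 changes were -1.42 for RORB and -1.28 for NFIL3, both called. The melatonin receptors could not be tested in these 3 classes, with at most 24 UMIs, those of MTNR1B in E18 bipolar-like cells, and 22 of MTNR1A in E18 amacrine-like cells. MTNR1B was highest in E18 horizontal-like cells, at 9.61 CPM from 34 UMIs. MTNR1C, PER1 and DBP were not analysed here.

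Across 54 E18 clusters of all classes, the genes most like each enzyme were ranked among 8519 genes by the correlation of log2(CPM + 10), as a description over clusters that share their libraries. For AANAT the genes reported here were PRPH2 (r = 0.91), AADACL4L3, ANO2 and UBAP1L (0.85). For ASMT they were SPTBN5 (0.96), REEP6, RP1L1, RP1 and ANO2 (0.92). For TPH1 the genes reported here were DGKD (0.70), SLC24A1, GNG11 and DGAT2 (0.67), with lower values than those given for the other enzymes.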

How the data were processed

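Single-cell libraries of whole retina, 4 from E12 and 4 from E18 as the labels group them, were analysed. The deposited values are UMI counts per gene and barcode in filtered 10x matrices, not normalized; Cell Ranger 2.1.0 and the GRCg6a assembly are named in the submitters' processing notes. The E16 libraries, whose labels conflict on the stage, were not analysed here. Barcodes needed 500 genes, which removed none; doublets were called by simulated neighbours (30 components, 15 neighbours, expected rate 0.8% per 1000 barcodes), 6413 at E12 and 1804 at E18, and removed.

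Counts scaled to 10000 per cell were clustered per stage (2000 variable genes, 40 components, 20 neighbours, Leiden resolution 1) with Python 3.11.15, scikit-learn 1.9.0, igraph 0.11.9 and leidenalg 0.10.2, leaving the 10 genes, the listed pathway genes and W-linked genes out of the variable genes. Clusters were named from fixed marker lists, needing at least 3 detected markers and a score 1.25 times that of the next class. Between 7.27% and 20.0% of the barcodes of a library stayed unnamed. E18 photoreceptor-like cells were clustered again and grouped by an opsin at 1000 CPM or more, or by leading genes.

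Counts were summed per class and library, and the library was the replicate. The test was edgeR 4.0.16's quasi-likelihood test (R 4.3.3, TMM scaling, filterByExpr), with Benjamini-Hochberg adjustment over all genes tested, a call being an adjusted p under 0.05 and at least 2-fold. Contrasts between classes or groups of the same libraries had the library as a block. The interactions of class and stage had no block. Each SE was derived from the test, as the absolute log2 fold change divided by the square root of the F statistic. Against 0 UMIs a fold is a bound from 3 counts over the group; with 1 to 3 UMIs it is a ratio of pooled levels with an exact 95% interval. Intervals and limits cover counting error only. The procedures were tested on simulated data. Alternatives were DESeq2 1.42.0, other scaling, filters, doublet handling, class rules, thinning and libraries left out.

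The 10 genes, the lists and the tests were chosen with earlier results of these data known. All 10 genes are named; of the other pathway genes, up to 6 per comparison with the largest called change and at least 20 CPM were eligible, and for the photoreceptor groups and TPH1 clusters further listed genes were named after their values were seen. Like genes were the 5 with the highest Pearson correlation among those with at least 50 CPM in a cluster. A few genes that these rules or the leading genes of a cluster would name are not reported here.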

Additional observations from a re-analysis of the deposited data

Results flagged for a closer look

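The change with stage differed between photoreceptor-like cells and bipolar-like cells for AANAT (adjusted p = 1.01e-07), TPH1 (adjusted p = 6.16e-06), CLOCK (adjusted p = 0.00112) and NPAS2 (adjusted p = 0.0188), all from edgeR's quasi-likelihood test of the interaction with Benjamini-Hochberg adjustment. Against amacrine-like cells it differed for AANAT (adjusted p = 2.75e-07), TPH1 (adjusted p = 7.1e-06) and CLOCK (adjusted p = 3.16e-05). The E12 side of these differences rests on 502 photoreceptor-like cells led by INHBB and PRLH.

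A single library stood apart from the other 3 in 4 of 66 groups checked, and chance gives about 1 in 20. AANAT in E18 photoreceptor-like cells was at 163 CPM in replicate 3, below the others. TPH1 in E18 bipolar-like cells was at 7.39 CPM in replicate 3, above the others. ARNTL in E12 amacrine-like cells was at 65.2 CPM in replicate 1, above the others. PER3 in E12 bipolar-like cells was at 3.52 CPM in replicate 2, below the others.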

How the results depend on the processing

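The counts of the 10 genes called and the share of E18 photoreceptor-like cells with an AANAT UMI stayed close in 127 of the recomputed settings and moved further in 21. Close means within 1.5 times for a count and within the SD over libraries for the share. With at least 1000 genes per barcode the count was 2 for stage in photoreceptor-like cells, 1 for amacrine-like against bipolar-like cells at E18 and 1 for the difference in stage change against bipolar-like cells. Of the photoreceptor groups, the rod-like and HAUS1 groups then had under 10 cells in each library and were left out. The CYP2J19 group kept only E18 replicate 4 and the blue group lost E18 replicate 3, so no count is given for these groups. With only the INHBB-led E18 cells, chosen after seeing the data, it was 0 for stage and 0 for both differences in stage change. Stage in amacrine-like cells gave 2 without TMM scaling, 3 without the filter and 2 with doublets kept. Amacrine-like against bipolar-like cells gave 1 with DESeq2 and 1 with cells classed by their own markers. The photoreceptor groups gave 3 when cells were typed by their own opsin and rod gene UMIs, which makes 4 groups in place of 8, so that this count does not compare directly with 14. The share of photoreceptor-like cells with an AANAT UMI was 18.4% unthinned and 11.6% at 700 UMIs.

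Leaving out a library in turn gave 4 to 5 calls for stage in photoreceptor-like, 2 to 4 in bipolar-like and 1 to 3 in amacrine-like cells. It gave 6 for photoreceptor-like against bipolar-like, 7 against amacrine-like and 1 to 2 for amacrine-like against bipolar-like cells, 3 to 5 and 3 to 4 for the differences in stage change against bipolar-like and amacrine-like cells, 12 to 16 for the photoreceptor groups, and 14.6% to 15% for the share.

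The replicate block changed none of these counts of calls: with it the stage counts were 5, 2 and 1, and without it the contrasts between classes gave 6, 7 and 2. With each library as a block, added after seeing the data, the differences in stage change gave 4 calls against bipolar-like cells and 3 against amacrine-like cells, with NPAS2 against bipolar-like cells at -4.32 (adjusted p = 0.0136). Same-numbered libraries of the stages share only a number: the correlation of their deviations from the group means was -0.09 to 0.138 over the 3 classes.

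Of the values for single members, 24 changed sign, none past the threshold. Without TMM scaling these were PER3 (0.02) for stage in bipolar-like cells and PER2 (0.18) and CRY1 (0.08) in amacrine-like cells. PER2 there was also 0.02 with own markers, 0.02 at 1000 genes, 0.07 on E12 cells with no W-linked UMI, and -0.13 to 0.05 with a library left out. At 1000 genes CLOCK was -0.26 against bipolar-like and -0.01 against amacrine-like cells, ARNTL 0.19 against amacrine-like cells, NPAS2 3.23 for the difference in stage change against amacrine-like cells, and AANAT 0.70 in the blue group. With a library left out in turn, PER3 was -0.04 to 0.72 against bipolar-like and -0.43 to 0.17 against amacrine-like cells, CRY2 -0.15 to 0.05 between amacrine-like and bipolar-like cells, AANAT -0.77 to 0.39 in the blue group and TPH1 -0.06 to 0.82 in the HAUS1 group. With own opsin typing AANAT was -0.11 in the green and ASMT -1.04 in the blue group, and with the 10 genes kept in the clustering TPH1 was 0.17 in the FLRT2 and -0.03 in the HAUS1 group. The cause was not tested.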
